A study of Caenorhabditis elegans with 4 samples.

Results

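miR-240-3p and miR-786-3p are the mature products of *mir-240* and *mir-786*, which lie side by side on the *C. elegans* X chromosome and have unrelated sequences. They were taken by name from a table of mature miRNAs and make up 2 of the 66 listed, each with a value in all 4 libraries. The study asked which miRNAs associate with either of the main miRNA Argonautes, ALG-1 and ALG-2, in adult worms. Small RNAs were sequenced after co-immunoprecipitation (co-IP) with an anti-FLAG antibody from whole worms at adult day 5, grown on OP50 bacteria with eggs and larvae removed and no further treatment.

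The ALG-1 co-IPs came from strain PQ530, in which the endogenous *alg-1* gene encodes FLAG::GFP::ALG-1, and the ALG-2 co-IPs from strain PQ582, in which endogenous *alg-2* encodes FLAG::RFP::ALG-2. Each tagged protein was therefore made from its own locus, with the other Argonaute untagged, and each strain is a single edited line crossed back to the N2 wild type. There were 2 libraries of independent RNA samples for each protein. The labels do not tie the columns of the table to replicate numbers, so the libraries are called A and B. No input RNA or mock co-IP was analysed here. Binding preference, the cells and amount in which each Argonaute is present, and the strain and tag cannot be told apart.

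An Argonaute holds a mature miRNA and is guided by it to messenger RNAs with complementary sites, which are then repressed. In worms the *mir-240 mir-786* locus is known for its part in the defecation motor program, a rhythm paced by calcium oscillations that begin in posterior cells of the intestine. Animals that lack the locus have long and irregular cycles. miR-786 acts in the intestine, where *elo-2*, a fatty acid elongase gene, is among its known targets, whereas the function of miR-240 is less well defined.

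In the WBcel235 assembly, *mir-240* spans positions 7882622-7882718 of chromosome X and *mir-786* spans 7882751-7882840. The annotated genes are 97 and 90 bases long, with 32 bases between them, so that the whole locus covers 219 bases. It overlaps 0 protein-coding genes. The nearest ones are *C39D10.8*, 1673 bases away at lower coordinates, and *pcyt-2.2*, 1484 bases away at higher coordinates. Another annotated miRNA gene, *mir-8203* (7882764-7882824), lies within the span of *mir-786*, and its products were not analysed here. Both members are the products of the 3p arm of their hairpins.

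miR-240-3p was more abundant in both ALG-1 libraries, whereas the direction for miR-786-3p differed between the ALG-2 libraries. Levels are in RPM, the reads of a miRNA for every 1000000 reads of its library. miR-240-3p had 852 and 794 RPM in ALG-1 libraries A and B, against 218 and 459 RPM in ALG-2 libraries A and B. Both ALG-1 values lay above both ALG-2 values, and the ALG-2 libraries differed from each other more than the ALG-1 libraries did. miR-786-3p had 419 and 426 RPM in ALG-1 libraries A and B, against 528 and 135 RPM in ALG-2 libraries A and B. Here the ALG-1 values were nearly equal and fell between the ALG-2 values, so the groups overlapped, as they did for 31 of the 66 listed miRNAs (47.0%).

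**Figure D1:**
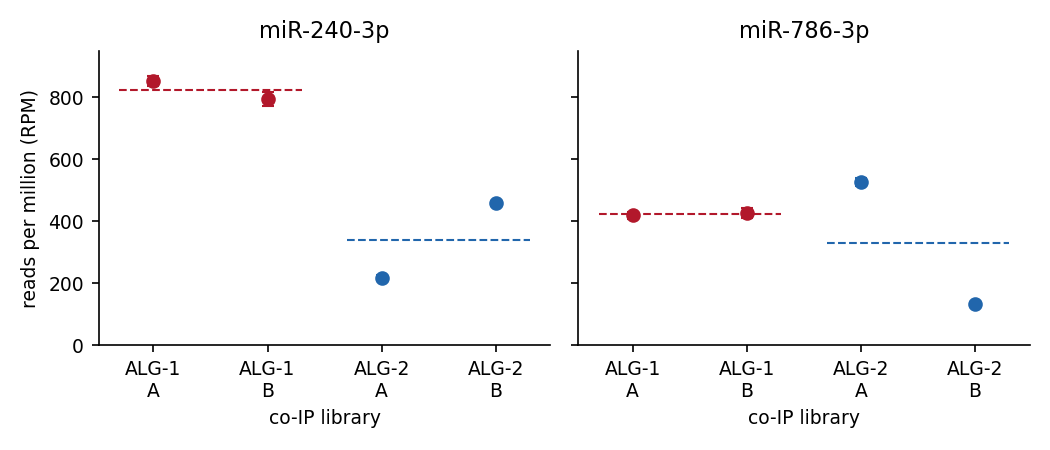
RPM of miR-240-3p (left) and miR-786-3p (right) in each co-IP library, with ALG-1 in red and ALG-2 in blue. Bars are 95% Poisson intervals from the inferred read numbers, which cover counting error only, and dashed lines are group means. For miR-240-3p both ALG-1 points (852 and 794 RPM) are above both ALG-2 points (218 and 459 RPM), whereas for miR-786-3p the ALG-2 points (528 and 135 RPM) lie on either side of the ALG-1 points (419 and 426 RPM).

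By inferred read numbers, counting error was small beside the differences between the ALG-2 libraries. Read numbers were not listed and were inferred from the step of the RPM values, taken as 1 read. The depth was then 11625117 reads in ALG-1 library A and 6428905 in ALG-1 library B, against 12401622 in ALG-2 library A and 25703472 in ALG-2 library B. miR-240-3p rested on 9907 and 5102 reads in the ALG-1 libraries, against 2700 and 11788 reads in the ALG-2 libraries. miR-786-3p rested on 4875 and 2741 reads in the ALG-1 libraries, against 6542 and 3466 reads in the ALG-2 libraries. If the inferred numbers hold, the counting error was at most 1.92% of any of the 8 values. PCR copies carried no molecular identifiers, so this covers the sampling of reads only.

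Both members were among the rarer listed miRNAs. By mean RPM over the 4 libraries miR-240-3p ranked 55 and miR-786-3p ranked 62 of 66. Their neighbours in this order were miR-59-3p (603 RPM) above and lin-4-5p (539 RPM) below miR-240-3p (581 RPM), and miR-241-5p (395 RPM) above and miR-2-3p (365 RPM) below miR-786-3p (377 RPM). The 4 library values of each member overlapped those of both its neighbours, so this order is not resolved by the data. Within libraries, miR-240-3p ranked 52 and 46 with ALG-1, against 64 and 56 with ALG-2. miR-786-3p ranked 59 and 55 with ALG-1, against 51 and 66 with ALG-2, so that in ALG-2 library B it was the rarest miRNA of the table. At its highest, miR-240-3p in ALG-1 library B was at 34.1% of the median of the listed miRNAs in that library.

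The ALG-1 to ALG-2 ratio of miR-240-3p exceeded 1.5 whichever libraries were set against each other. Against ALG-2 library A the ratios were 3.91 for ALG-1 library A and 3.65 for ALG-1 library B. Against ALG-2 library B they were 1.86 and 1.73 for the same ALG-1 libraries. The ratio thus moved mainly with the ALG-2 library used. By the criterion that all 4 ratios exceed 1.5 in one direction, which adapts the threshold of the study, miR-240-3p was higher with ALG-1, as were 9 of the 66 listed miRNAs (13.6%), with 11 higher with ALG-2 (16.7%). It did not pass when all 4 ratios had to exceed 2. Groups did not overlap, with ALG-1 higher, for 18 of the 66 (27.3%), and with ALG-2 higher for 17 (25.8%).

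Tested against the spread between libraries, the difference of miR-240-3p was not significant. The ALG-1 libraries averaged 823 ± 41.4 RPM, compared to 338 ± 170 RPM in the ALG-2 libraries (SD, n = 2 per group). The log2 ratio of ALG-1 over ALG-2 on log2(RPM + 1) was 1.38 ± 0.62 (SE), with a 95% interval from -0.15 to 2.90, a limma p of 0.0689 and an adjusted p of 0.253 over the 66 miRNAs. This ratio ranked 7 of 66 in the direction of ALG-1. limma called 0 of the 66 miRNAs higher with ALG-1 at an adjusted p below 0.05 (7, or 10.6%, before adjustment), and 1 (1.52%) higher with ALG-2 (10, or 15.2%, before adjustment). The interval includes no difference as well as a ratio larger than any of those observed. Without ALG-2 library A the log2 ratio was 0.84, and without ALG-2 library B it was 1.91. Such fits take their spread from the ALG-1 libraries alone, so their p-values are not given.

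For miR-786-3p the direction depended on the ALG-2 library. Against ALG-2 library A its ratios were 0.795 for ALG-1 library A and 0.808 for ALG-1 library B, both below 1. Against ALG-2 library B they were 3.11 and 3.16 for the same ALG-1 libraries. The ALG-1 libraries averaged 423 ± 4.95 RPM, compared to 331 ± 278 RPM in the ALG-2 libraries (SD, n = 2 per group). The log2 ratio of ALG-1 over ALG-2 was 0.66 ± 0.80 (SE), with a 95% interval from -1.28 to 2.61 and a limma adjusted p of 0.677. Without ALG-2 library A it was 1.64, and without ALG-2 library B it was -0.32, again with the spread of the ALG-1 libraries alone. The 95% interval from all libraries spans large differences in either direction, so the data do not show that miR-786-3p is shared equally by the Argonautes. Over all 66 miRNAs the median log2 ratio was 0.13, below that of either member.

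**Figure D2:**
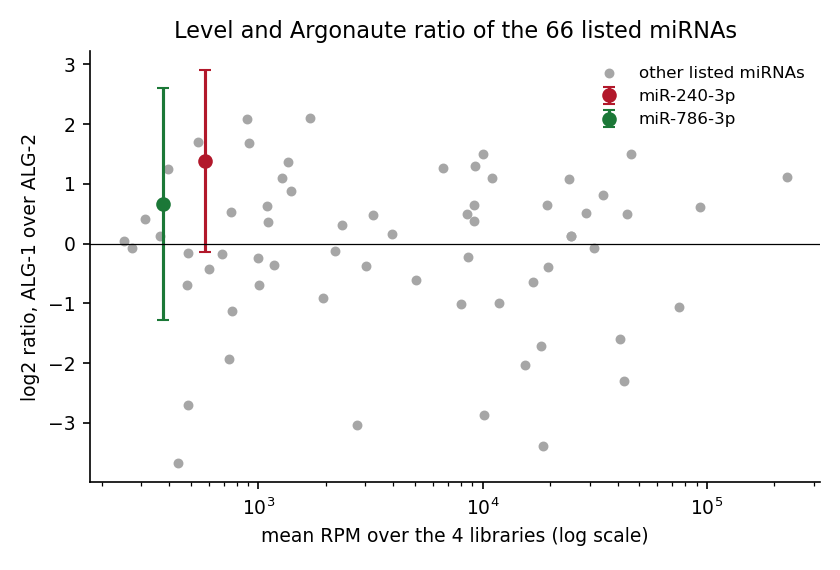
Log2 ratio of ALG-1 over ALG-2 for each of the 66 listed miRNAs, plotted against mean RPM over the 4 libraries on a log axis. Error bars on miR-240-3p (red) and miR-786-3p (green) are 95% limma intervals. The members lie at the low end of abundance, at 1.38 and 0.66, and both intervals cross 0.

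Setting the members against each other within a library removes the scaling of that library. The adapters of a small RNA library do not ligate to every sequence equally, so this ratio is no ratio of molecules and was compared across libraries only. miR-240-3p was 2.03 and 1.86 times miR-786-3p in ALG-1 libraries A and B, against 0.413 and 3.40 times in ALG-2 libraries A and B. The exact 95% binomial intervals from the inferred read numbers, which cover counting error only, were 1.96 to 2.10 and 1.78 to 1.95 with ALG-1, against 0.394 to 0.432 and 3.27 to 3.53 with ALG-2. The ALG-1 libraries thus held the pair in similar proportions, with miR-240-3p at 67.0% and 65.1% of the reads of both. In the ALG-2 libraries the proportion was 29.2% in library A and 77.3% in library B, so the order of the members was inverted in library A alone.

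The ratio differed by 8.24-fold between the ALG-2 libraries and by 1.09-fold between the ALG-1 libraries. Both members contributed to the first of these, in opposite directions. miR-240-3p was 2.11 times higher in ALG-2 library B than in library A, whereas miR-786-3p was 3.91 times higher in ALG-2 library A than in library B. The mean log2 ratio of miR-240-3p over miR-786-3p was 0.96 ± 0.090 with ALG-1 and 0.24 ± 2.15 with ALG-2 (SD, n = 2 per group). The difference of 0.72 ± 1.52 (SE) was within the spread of the ALG-2 libraries, and the exact two-sided permutation test gave p = 1.0. With 2 libraries against 2 this test cannot go below 0.333. Without ALG-2 library A the difference was -0.81, and without ALG-2 library B it was 2.24.

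The sum of both members was examined after their values had been seen. It was 1272 and 1220 RPM in ALG-1 libraries A and B, against 745 and 593 RPM in ALG-2 libraries A and B. The groups did not overlap, and the 4 ratios of ALG-1 over ALG-2 ranged from 1.64 to 2.14. Among single miRNAs, groups did not overlap with ALG-1 higher for 27.3% of the 66, and all 4 ratios exceeded 1.5 for 13.6%. Sums of other miRNAs were not computed. The mean difference was 0.91 ± 0.17 on the log2 scale (SE, n = 2 each, exact two-sided permutation p = 0.333, the smallest possible). The opposite deviations of the members in the ALG-2 libraries partly cancelled in the sum, which narrowed its SE. The sum is therefore no firmer evidence of a preference than its members.

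**Figure D3:**
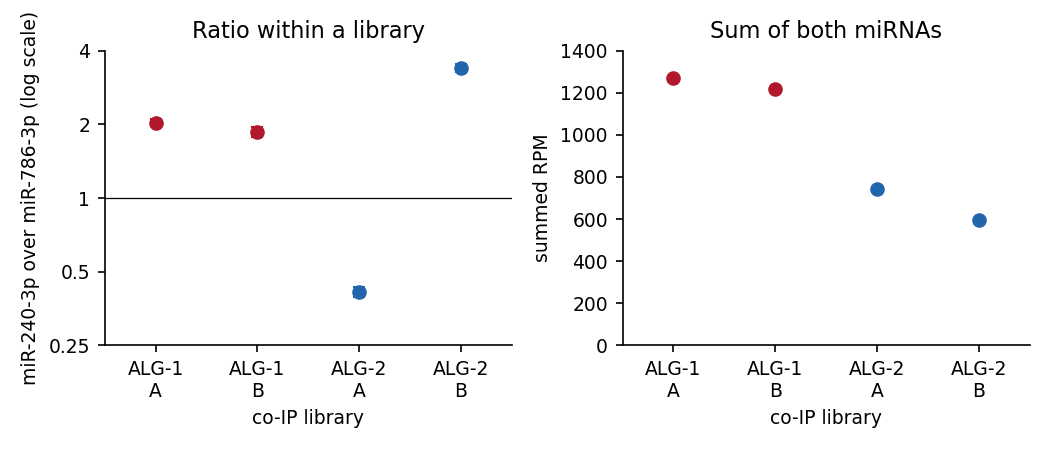
Left, miR-240-3p over miR-786-3p within each co-IP library on a log axis, with exact 95% binomial intervals for counting error from inferred read numbers, ALG-1 in red and ALG-2 in blue. Right, the summed RPM of both miRNAs. The ALG-1 ratios (2.03 and 1.86) lie between the ALG-2 ratios (0.413 and 3.40), whereas the ALG-1 sums (1272 and 1220 RPM) are above the ALG-2 sums (745 and 593 RPM).

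The spread between replicate libraries was small with ALG-1 and larger with ALG-2 for both members. Between the ALG-1 libraries, log2 RPM of miR-240-3p differed by 0.10 and that of miR-786-3p by 0.024, whereas the median difference of the 66 miRNAs was 0.34. By this measure miR-240-3p and miR-786-3p ranked 58 and 61 of 66, among the smallest differences between these libraries. Each rank rests on a single difference, so it does not show that either miRNA is steady in general. Between the ALG-2 libraries the differences were 1.07 for miR-240-3p and 1.97 for miR-786-3p, with a median of 0.90 over the table. These ranked 25 and 12 of 66. Of the listed miRNAs, 35 were higher in ALG-2 library A, miR-786-3p among them, and 31 in ALG-2 library B, miR-240-3p among them. RPM are shares of a library, so a split of this kind can arise between any libraries. It adds nothing to the opposite directions of the members. What made the ALG-2 libraries differ was not tested.

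The miRNAs whose values moved most like each member were found from log2(RPM + 1), centred on each miRNA's own mean over the 4 libraries. For miR-240-3p the closest were miR-85-3p, miR-54-3p and miR-63-3p, with root mean square differences of 0.17, 0.20 and 0.22 on the log2 scale. miR-85-3p, the closest of all, had 14428 and 11053 RPM with ALG-1, against 3097 and 8521 RPM with ALG-2. Its level was far above that of miR-240-3p, but the libraries stood in the same order, with ALG-2 library A lowest.

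For miR-786-3p the closest were miR-245-3p, miR-56-3p and miR-238-3p, with root mean square differences of 0.14, 0.25 and 0.26. miR-245-3p had 3709 and 3298 RPM with ALG-1, against 4576 and 1384 RPM with ALG-2. As with miR-786-3p, ALG-2 library A was the highest of the 4 and ALG-2 library B the lowest. The profiles of miR-240-3p and miR-786-3p differed by 1.13, and 40 of the other miRNAs were closer to miR-240-3p than its genomic neighbour was. With 4 libraries of 2 groups such likeness is a description only.

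**Figure D4:**
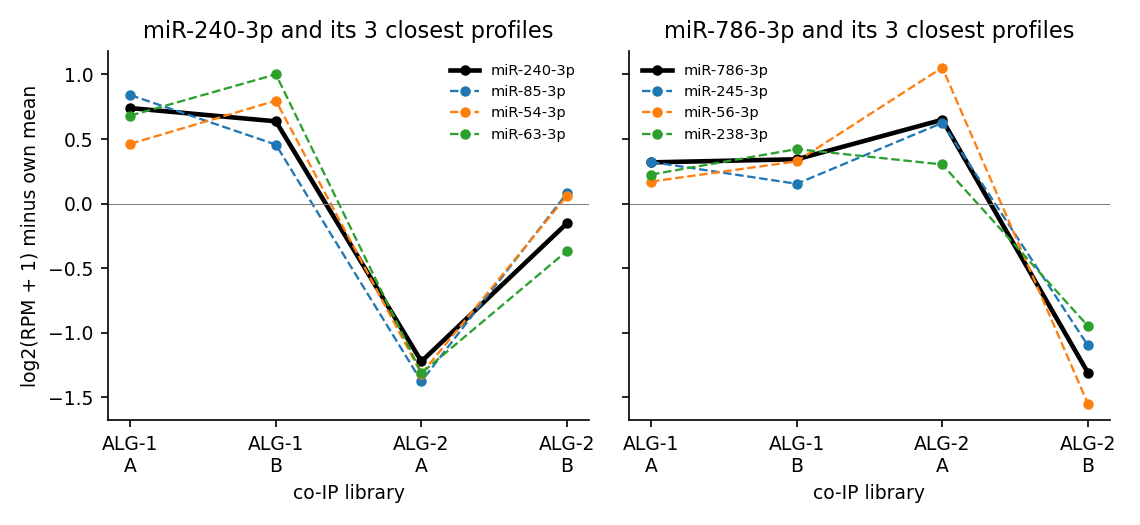
Log2(RPM + 1) minus its mean over the 4 co-IP libraries for miR-240-3p (left) and miR-786-3p (right), in black, with the 3 listed miRNAs of most similar profile as dashed lines. Each line joins the values of 1 miRNA. miR-240-3p and the miRNAs like it are lowest in ALG-2 library A, whereas miR-786-3p and the miRNAs like it are lowest in ALG-2 library B.

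Whether other miRNA genes that lie close together also change their proportions was examined in 18 pairs of adjacent listed genes within 10 kb of each other, of which miR-240-3p/miR-786-3p was 1. Between the ALG-2 libraries, the log2 ratio of miR-240-3p/miR-786-3p differed by 3.04, the third highest of the 18. The other 17 pairs ranged from 0.013 to 5.12, with a median of 1.25. Between the ALG-1 libraries its ratio differed by 0.13, which ranked 14 of 18, with a range from 0.0011 to 0.99 and a median of 0.40 for the other pairs. Of the 18 pairs, 14 differed more between the ALG-2 than between the ALG-1 libraries. The pairs share miRNAs and libraries and were not tested.

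From ALG-1 to ALG-2 co-IPs, the mean log2 ratio of miR-240-3p/miR-786-3p differed by 0.72, which ranked 7 of 18. The largest such difference was 2.56, for miR-51-5p/miR-53-5p, and the smallest was 0.12, for miR-56-3p/miR-55-3p. The median of the other 17 pairs was 0.59. The SE of the value for *mir-240* and *mir-786* was 1.52, so its rank cannot decide whether they stand apart from other neighbouring genes.

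The pairs whose ratio differed more between the ALG-2 libraries than that of miR-240-3p/miR-786-3p were miR-51-5p/miR-53-5p (5.12) and, on chromosome X, miR-55-3p/miR-54-3p (4.44). They were named after their values were seen. The locus of the second pair also encodes 2 of the miRNAs chosen above for their similar profiles, so that likeness is no separate result. miR-54-3p, close to miR-240-3p, had 8086 and 10195 RPM with ALG-1, against 2349 and 6121 RPM with ALG-2. miR-56-3p, close to miR-786-3p, had 8019 and 8940 RPM with ALG-1, against 14799 and 2433 RPM with ALG-2.

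**Figure D5:**
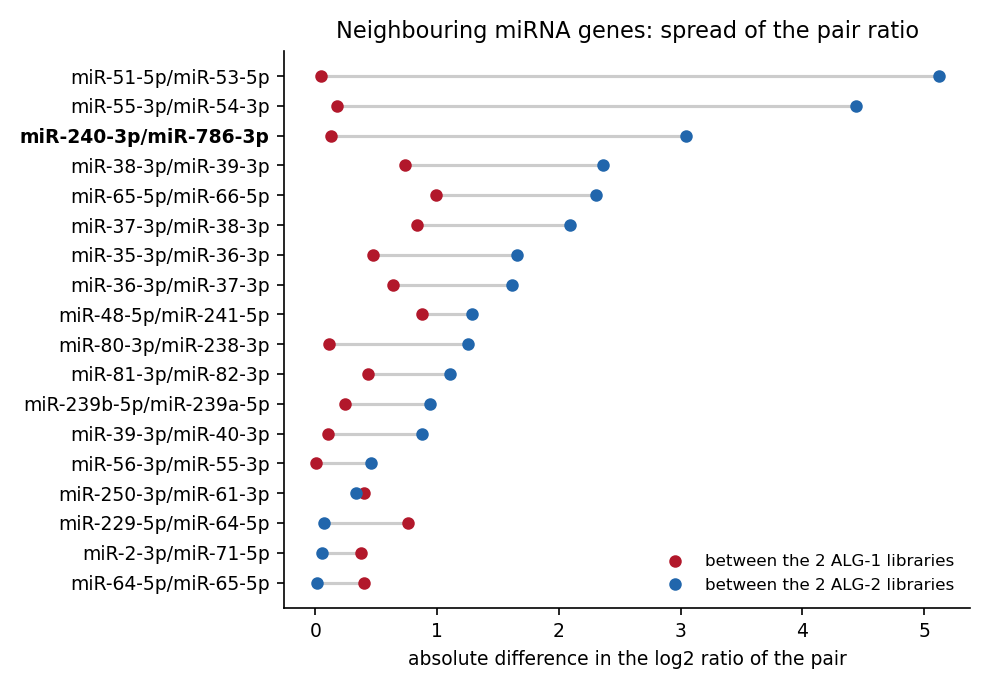
Absolute difference in the log2 ratio of 18 pairs of neighbouring miRNAs between the ALG-1 libraries (red) and between the ALG-2 libraries (blue), with miR-240-3p/miR-786-3p in bold. Its ratio differed by 0.13 between the ALG-1 libraries and by 3.04 between the ALG-2 libraries.

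The members share a chromosome and a hairpin arm with many other listed miRNAs. For reference, 13.6% of all 66 had all 4 ratios above 1.5 toward ALG-1 and 16.7% toward ALG-2. Of 19 with genes on chromosome X, 5 had all 4 ratios above 1.5 toward ALG-1, miR-240-3p among them, and 1 toward ALG-2. The other 13, miR-786-3p among them, passed in neither direction. The median log2 ratio of the 19 was 0.66, which is the value of miR-786-3p itself, compared to 0.13 for all 66. Of 40 listed miRNAs from the 3p arm, 3 passed toward ALG-1, again with miR-240-3p, and 9 toward ALG-2, and their median log2 ratio was 0.13. limma called 0 of the X-linked miRNAs in either direction (3 toward ALG-1 and 1 toward ALG-2 at an unadjusted p below 0.05) and 1 of the 3p miRNAs, which was higher with ALG-2. These shares were not tested against each other.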

How the data were processed

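Small RNA libraries, 2 for each Argonaute, were grouped by sample title. The authors removed adapters (cutadapt, version not stated), mapped reads to the WS261 genome with miRDeep2, quantified mature miRNAs on miRBase release 21 and deposited RPM (reads for every 1000000 of the library). A miRNA that rises therefore lowers the others, and the 66 listed miRNAs made up 99.3% to 99.5% of each library. The study states its minimum as 1000 reads across the libraries. A minimum of 1000 RPM summed over them, used in its place, removed 0 miRNAs. The lowest sum listed was 1003 RPM, so rarer miRNAs may be absent from the table. Ranks and medians hold among the 66 listed only.

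Depth was inferred as the smallest whole number of reads that made all 66 values of a library whole (tolerance 0.0001). limma 3.58.1 (R 4.3.3) was fitted to log2(RPM + 1) of all 66 miRNAs with a variance trend, no replicate block and Benjamini-Hochberg adjustment (threshold 0.05). It was tested on simulated data whose planted differences exceeded those of the members and whose spread was equal in both groups. That test therefore does not cover differences as small as the members' or the larger spread of the ALG-2 libraries. Other values came from Python 3.11.15 with scipy 1.17.1. Gene positions came from RefSeq (WBcel235), which gave no strand, so neighbours were paired by distance. For genes with both arms listed, the more abundant arm was used, and the identical miR-44-3p/miR-45-3p pair was left out. Besides the members, the miRNAs named were their neighbours in abundance, the 3 closest profiles of each, and the genomic pairs with the largest and smallest difference. Members, lists and tests were chosen with earlier results of these data known.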

Additional observations from a re-analysis of the deposited data

How the results depend on the processing

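The log2 ratio of miR-240-3p stayed positive under every alternative run, and not significant by limma in those that kept all libraries. The alternatives were pseudocounts of 0.1 and 10, no filter, median-of-ratios and TMM scaling, no variance trend, the replicate block and leaving out each library (0.84 to 1.91). Having no filter could change no value, because the main minimum removed 0 miRNAs. Its lowest ratio was 1.58 after TMM scaling and above 1.5 in the other alternatives that kept all libraries. A 2-fold criterion, which gave 6 miRNAs with ALG-1 and 9 with ALG-2, ended its call. Without a library the lowest ratio was 1.73 to 3.65. Neither this ratio nor the sign of the log2 ratio could turn there, because all 4 ratios already exceeded 1.5. For miR-786-3p, the log2 ratio was -0.32 to 1.64 without a library and turned negative only without ALG-2 library B. Its lowest ratio was 0.795 to 3.11, and rose above 1 only without ALG-2 library A, against which both ratios were below 1. The ratio of group means, a different measure, was 1.28, in the same direction as the log2 ratio from all libraries. The difference in the ratio of the members ranged from -0.81 to 2.24 without a library. In the limma fits without a library, the lone library was assumed to vary like the other group. With the replicate block, pairing consecutive running numbers of the columns, the limma adjusted p was 0.298 for miR-240-3p and 0.615 for miR-786-3p, and the difference in their ratio stayed at 0.72 ± 1.58 (SE). Deviations correlated at -0.21 for this pairing, and the crossed pairing, added after seeing the data, gave 2 limma calls with ALG-1 and 5 with ALG-2.

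Over all miRNAs, limma called 4 higher with ALG-2 after either scaling, 3 without the variance trend and 0 to 4 without a library, in place of 1. The 1.5-fold criterion gave 17 and 22 (ALG-1 and ALG-2) by group means, 5 with ALG-1 at a minimum of 4000 RPM, which removed both members, and 12 to 18 and 11 to 18 without a library. Leaving out a library left fewer ratios to pass, so these 1.5-fold counts could only stay or rise. The same holds for group means, whose ratio cannot lie below the lowest of the 4 ratios. The 4000 RPM minimum kept 46 miRNAs, so the count there could only stay or fall. What changed the limma calls was not tested. Planned tests with count models were not run, because read numbers were inferred from only 66 values per library.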
